A study of Mus musculus with 12 samples.

Results

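The 36 genes described here encode enzymes of the lysosome, the small proteins that present lipids to these enzymes, and factors that modify or sort the enzymes on their way to the lysosome. They were chosen by gene symbol from a written list of lysosomal enzymes and activators, with cathepsins and the ceroid lipofuscinosis genes left out, and they are 36 of the 52459 genes counted. The counts came from mRNA libraries of 2 brain areas of mice, the cerebellum (Cb) and the forebrain together with the midbrain (F/M), 12 in all, with 3 libraries in each of the groups Cb-N, Cb-T, F/M-N and F/M-T. T stands for *Tpp1-/-* mice, homozygous for a gene-targeted disruption of *Tpp1*, and N for their wild-type siblings. All animals were males at an age of 4 months from heterozygous crosses of 1 targeted line, the tissue was taken whole, and no treatment was given by the labels. *Tpp1* encodes tripeptidyl peptidase 1, the lysosomal protease that is lost in classic late-infantile neuronal ceroid lipofuscinosis.

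Lysosomal hydrolases take glycolipids, glycosaminoglycans, glycoproteins, glycogen, lipids, peptides and nucleic acids apart at acid pH, and loss of a single one of them usually gives a storage disease. Most are made in the endoplasmic reticulum, tagged with mannose 6-phosphate in the Golgi and carried to the lysosome by receptors for that tag. Many of their genes hold an E-box motif near the start that is bound by factors of the TFEB family, which raise lysosomal gene expression together. Not every listed gene encodes a soluble hydrolase. *Pld3* and *Hgsnat* encode membrane-bound enzymes, *Npc2*, *Gm2a* and *Psap* encode lipid carriers or activators, *Ifi30* encodes a thiol reductase, and *Sumf1*, *Gnptab* and *Nagpa* encode enzymes that act before the lysosome. The list is therefore described by role.

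The libraries held 21428379 to 24458189 counts each, and the listed genes took 0.334% to 0.345% of them in Cb-N, 0.413% to 0.418% in Cb-T, 0.441% to 0.453% in F/M-N and 0.472% to 0.483% in F/M-T. Libraries of a group differed from each other by more than sampling noise, with a chi-square statistic per degree of freedom of 1.28 to 3.59, so each was counted as 1 replicate. *Tpp1* had 111.9 to 114.1 CPM (read counts scaled to library size with TMM factors) in Cb-N against 27.96 to 31.04 CPM in Cb-T, and 87.74 to 94.28 CPM in F/M-N against 21.77 to 23.9 CPM in F/M-T. The labelled tissues carried their markers, since 8 cerebellar genes summed to 5019 to 6219 CPM in Cb and to 248 to 264 CPM in F/M, whereas 8 forebrain genes summed to 166 to 196 CPM in Cb and to 1302 to 1454 CPM in F/M. Region markers also differed between Cb-N and Cb-T. The cerebellar sum was 6097 to 6219 CPM in Cb-N against 5019 to 5079 CPM in Cb-T, and the forebrain sum was 165.8 to 177.3 CPM against 188.5 to 196.4 CPM. The forebrain markers did not move together, since 2 of the 6 tested in Cb rose and 2 fell at FDR below 0.1, with a median log2 fold change of -0.20. The higher sum came from *Nrgn*, at a mean of 3.33 CPM in Cb-N against 40.2 CPM in Cb-T, a rise larger than that of the sum, while *Ppp1r1b* fell from 158.6 to 144 CPM and *Neurod6* from 6.92 to 5.62 CPM. The 39 *Hox* genes, which are markers of hindbrain and spinal cord and were looked at after the values had been seen, summed to 0.51 to 0.73 CPM in Cb-N and to 14.6 to 15.4 CPM in Cb-T, against at most 0.35 CPM in F/M. The part of these shifts in the Cb results was not tested.

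To see how lysosomal enzyme genes stood in *Tpp1*-deficient brain, T was compared with N in each area. In Cb, mRNA of most listed genes was moderately higher in T. *Man2b1*, *Npc2*, *Pld3*, *Hexa*, *Gusb*, *Naglu*, *Glb1* and *Ifi30* rose by 1.525- to 1.75-fold, and 19 further genes rose by less. In F/M, *Ifi30* rose 2.08-fold and *Dnase2a* 1.7-fold, and 16 further genes rose by less than 1.5-fold. Of the 36 genes, 35 passed the filter on low counts in both areas, and *Acp5* (tartrate-resistant acid phosphatase) was too low to be tested, with 2 to 14 counts and a mean of 0.21 to 0.38 CPM per group.

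A DEG was a gene with FDR below 0.1 in edgeR's quasi-likelihood test and a fold change of at least 1.5. Among the 35 genes tested in Cb, 8 were DEG with higher levels in T, where 8.54% of all 16382 tested genes were, and 0 were DEG with lower levels, where 2.66% of all genes were. At FDR below 0.1 and any fold change, 27 rose against a background of 29.8% of all genes, and 1, *Idua*, fell against a background of 27.9%. The median log2 fold change (T vs N) was 0.23 for the 35 genes and 0.012 for all genes. The sign was positive for 32 of the 35 genes and for 52.0% of all genes. Every Cb-T library lay above every Cb-N library for 26 of the 36 genes and below for 0 of them, as was the case for 27.7% and 29.4% of all genes. At an unadjusted p under 0.05, *Idua* was again the only listed gene with a lower level, and the Wald test of DESeq2 and limma-voom also gave 0 listed DEG with a lower level.

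In F/M, 2 of the 35 tested genes were DEG with higher levels in T, against 2.63% of all 16665 tested genes, and 0 were DEG with lower levels, against 0.858%. At any fold change 18 rose, where the background was 12.8%, and 0 fell, where it was 14.4%. No listed gene had a lower level at an unadjusted p under 0.05, and DESeq2 and limma-voom also gave 0 genes that fell. In 1 fit of all 12 libraries, however, 15 genes rose and 2 fell in F/M, namely *Ids* (-0.06, FDR 0.0826) and *Pld3* (-0.08, FDR 0.0143), and the rises of *Psap*, *Sumf1* and *Nagpa* did not pass. The median log2 fold change was 0.12 for the 35 genes and 0.0078 for all genes, with a positive sign for 32 of the 35 and for 52.3% of all genes. These signs depended on the scaling, since in 1 fit of all 12 libraries the median was 0.091 for the listed genes and -0.025 for all genes, and the sign was positive for 26 of the 35 and for 43.9% of all genes. *Galc*, *Arsa*, *Smpd1*, *Arsb*, *Lipa* and *Acp2* had log2 fold changes of 0.0005 to 0.026 in the fit of 6 F/M libraries and of -0.0325 to -0.0071 in that fit, and passed in neither. The F/M-T libraries lay wholly above the F/M-N libraries for 18 of the 36 genes and wholly below for 1, *Pld3*, as was the case for 13.3% and 23.6% of all genes.

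**Figure D1:**
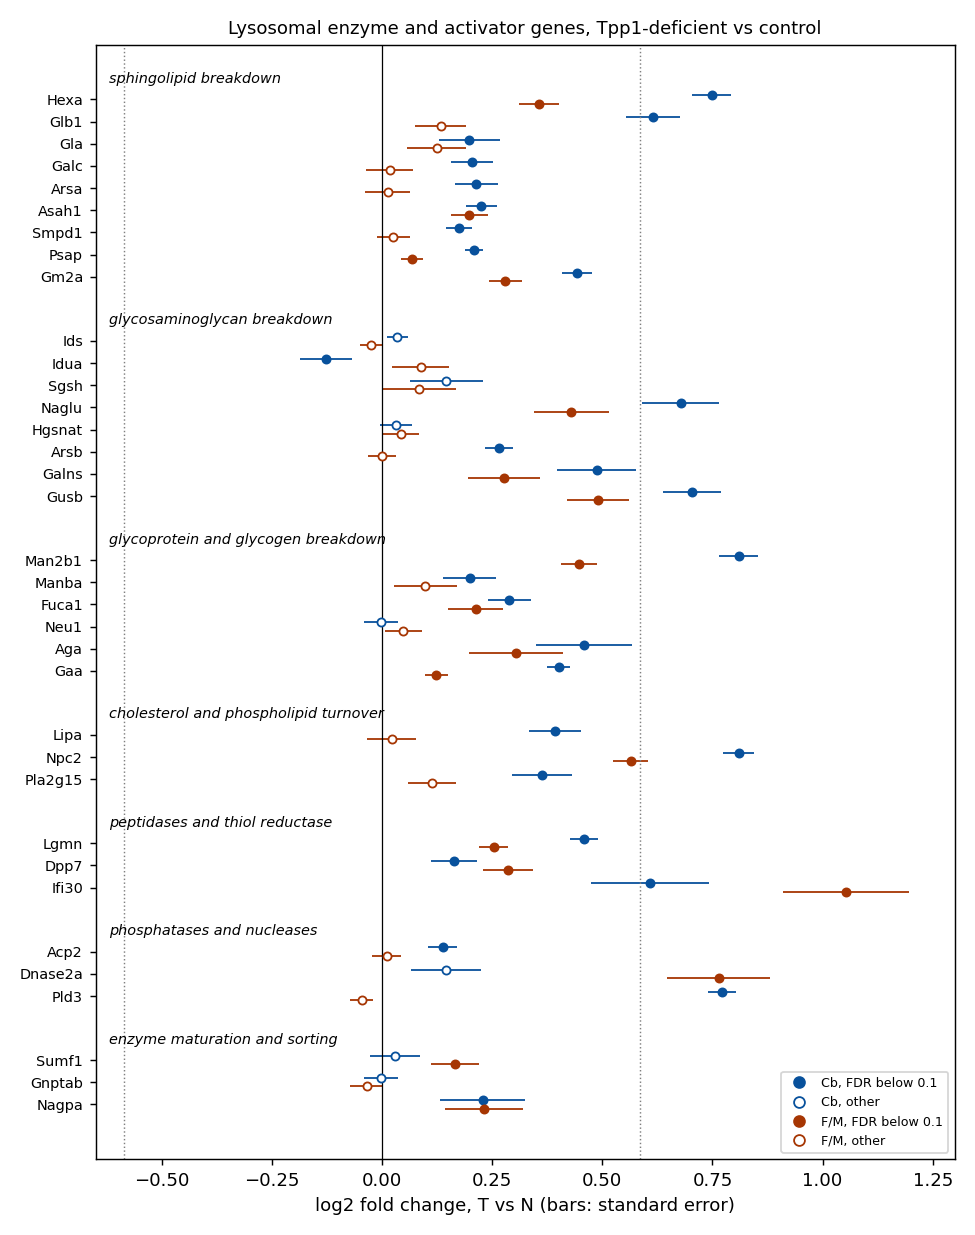
Log2 fold change (T vs N) of the 35 tested lysosomal genes on the horizontal axis, by role, in Cb (blue) and F/M (orange-brown), with bars for the standard error and filled points for FDR below 0.1. Dotted lines mark a 1.5-fold change, which 8 genes passed in Cb and 2 in F/M, and *Pld3* and *Dnase2a* are the genes whose points lie farthest apart between the areas.

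The change in Cb was larger than the change in F/M for 17 of the 35 tested genes, by a tissue-by-genotype interaction over the 12 libraries, in which a positive value means a larger T vs N log2 fold change in Cb. At FDR below 0.1 and a difference of at least 1.5-fold, 1 gene (*Pld3*) had a positive interaction, against 6.41% of all 17482 tested genes, and 1 (*Dnase2a*) a negative one, against 1.2%. Without the fold limit, a rule added after the data had been seen, 17 genes had a positive interaction, against 17.4%, and 1 a negative one, against 10.1%. The median interaction was 0.17 for the listed genes and 0.027 for all genes on the log2 scale. It was 0.10 without replicate 3 of Cb-T and 0.11 without replicate 1 of Cb-T, where that of all genes was -0.025 in each case. The study's methods read as 3 mice of each genotype that gave both areas, but no label ties a Cb library to an F/M library of the same mouse. The interaction and the comparison of Cb-N with F/M-N therefore treated all libraries as independent.

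To look at what the listed genes share in sequence, promoter windows of 300 bases (250 before to 50 after the gene start, RefSeq, GRCm38.p6) were searched for the E-box core CACGTG and for the longer palindrome TCACGTGA, which contains it. Both read the same on either strand. Windows were found for 32 of the 36 genes (36 windows), the others being *Asah1*, *Hgsnat*, *Galns* and *Aga*. The core was found in 11 of the 32 genes (34.4%), against 8.09% of all 27025 genes with a window. The palindrome was found in 4 of the 32 genes (12.5%), against 1.12% of all genes. Of the other lysosomal genes read beside the list, 22 had a window, and the core was found in 3 of them (13.6%) and the palindrome in 2 (9.09%). By window, 30.6% of the listed genes' windows held the core, against 7.15% of all 32851 windows. Windows are given here for *Glb1* and *Ifi30*, which were DEG, for *Gaa*, one of the highest genes of the list per length, and for *Gla*, *Dpp7* and *Sumf1*, which hold the palindrome as *Ifi30* does. They read 5′ to 3′ on the strand of the gene and end before its start, with CACGTG in capitals.
Glb1 (chr9:114401000-114401065, plus strand): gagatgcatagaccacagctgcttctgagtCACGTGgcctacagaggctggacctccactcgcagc
Ifi30 (chr8:70766824-70766889, minus strand): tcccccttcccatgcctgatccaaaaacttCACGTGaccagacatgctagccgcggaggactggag
Gaa (chr11:119267793-119267858, plus strand): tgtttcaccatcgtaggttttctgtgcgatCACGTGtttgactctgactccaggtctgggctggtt
Gla (chrX:134601164-134601255, minus strand): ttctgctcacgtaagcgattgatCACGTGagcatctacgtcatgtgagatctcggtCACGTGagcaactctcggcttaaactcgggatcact
Dpp7 (chr2:25356370-25356435, minus strand): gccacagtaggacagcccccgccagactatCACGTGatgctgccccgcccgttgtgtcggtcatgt
Sumf1 (chr6:108185584-108185624, minus strand): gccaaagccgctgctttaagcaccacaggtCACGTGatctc

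*Gla* held the palindrome in 2 copies, whose cores began 227 and 194 bases before the gene start. The core also lay in the windows of *Arsa*, *Sgsh*, *Naglu* and *Nagpa*, and in that of *Lgmn* at the second of its listed starts. Among the 8 DEG of Cb, *Glb1*, *Naglu* and *Ifi30* held it, whereas the letters were not in the windows of *Man2b1*, *Npc2*, *Pld3*, *Hexa* and *Gusb*, nor in that of *Dnase2a*. *Sumf1*, with a core that began 11 bases before its start, had a log2 fold change of 0.03 in Cb (FDR 0.7) and of 0.16 in F/M (FDR 0.0368). Presence of the letters is a description of the sequence only.

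**Figure D2:**
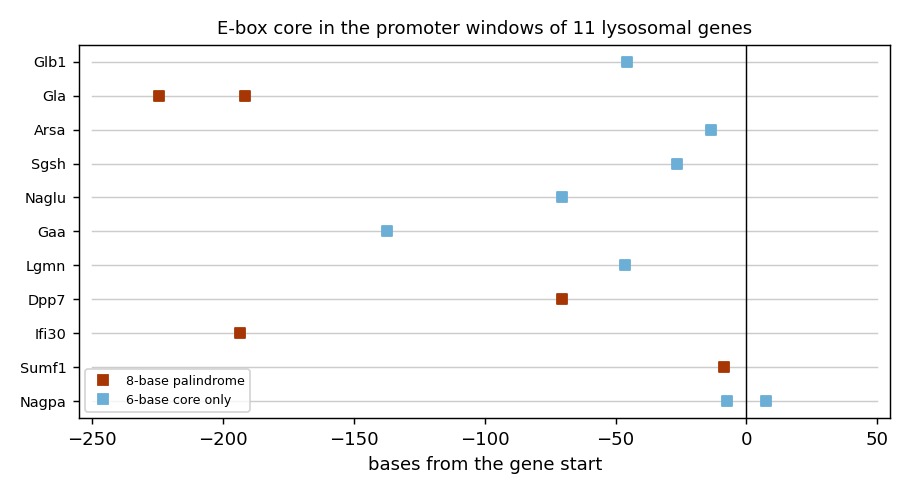
Position of the E-box core CACGTG in the promoter windows of the 11 listed genes that hold it, in bases from the gene start, with the 8-base palindrome in dark red and other matches in blue. *Gla* holds 2 palindromes, and the match of *Lgmn* is in the window of its second listed start.

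The enzymes and activators of sphingolipid breakdown all rose in Cb. At FDR below 0.1, 9 of 9 passed there, against 29.8% of all genes, and 2 (*Hexa* and *Glb1*) were DEG, against 8.54%. In F/M 4 of the 9 passed, against 12.8%. *Hexa* (chromosome 9, 59539540 to 59565109 in GRCm38) encodes the alpha subunit of beta-hexosaminidase, which cleaves GM2 ganglioside. The Cb-N libraries had 37.0, 35.8 and 40.3 CPM of it against 61.3, 62.7 and 64.25 CPM for Cb-T. In F/M it had 48.7, 49.3 and 54.5 CPM in N and 63.7, 62.5 and 64.7 CPM in T. The groups did not overlap in either area, and the T libraries of Cb and F/M came to lie at the same level although the N libraries had been lower in Cb. The log2 fold change was 0.75 in Cb (standard error 0.0442, FDR 1.74e-18) and 0.36 in F/M (standard error 0.0463, FDR 1.3e-05), with an interaction of 0.41 (FDR 1.65e-05).

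*Glb1* (chromosome 9, 114401076 to 114474898) encodes beta-galactosidase, which acts on GM1 ganglioside and keratan sulfate. It had 18.45, 19.9 and 17.95 CPM in Cb-N against 29.1, 26.5 and 29.9 CPM in Cb-T. In F/M it had 27.5, 28.0 and 31.2 CPM in N and 32.5, 30.3 and 30.3 CPM in T, and these libraries overlapped. Its log2 fold change was 0.62 in Cb (standard error 0.0606, FDR 1.23e-11) and 0.13 in F/M (FDR 0.115), and the interaction was 0.50 (FDR 4.97e-05). *Glb1* was close to the fold limit, since its Cb fold change was 1.49 without replicate 3 of Cb-N and also without replicate 3 of Cb-T. A stretch of 5.49% of its exons is shared with *Tmppe* on the same strand, a gene at 6.33 CPM in Cb-N against 6.17 CPM in Cb-T.

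The activators of this group rose too. *Gm2a*, which lifts GM2 ganglioside out of the membrane for beta-hexosaminidase, had log2 fold changes of 0.44 in Cb (FDR 6.06e-15) and 0.28 in F/M (FDR 2.16e-05). *Psap*, the precursor of the saposins that assist sphingolipid hydrolases, had 0.21 in Cb (FDR 9.48e-12) and 0.07 in F/M (FDR 0.0581), where the call was lost in 1 fit of 12 libraries (0.04, FDR 0.26). The other hydrolases moved by less in Cb, with log2 fold changes of 0.23 for *Asah1* (acid ceramidase), 0.21 for *Arsa* (arylsulfatase A), 0.20 for *Galc* (galactosylceramidase), 0.20 for *Gla* (alpha-galactosidase A) and 0.17 for *Smpd1* (acid sphingomyelinase). In F/M only *Asah1* of these 5 passed, at 0.20 (FDR 0.0021). *Gla* had 0.12, and *Smpd1*, *Galc* and *Arsa* had values near 0 whose sign changed with the scaling. *Smpd1* lies 186.4 kb from *Tpp1* on chromosome 7, and a part of the targeted locus in its value was not tested.

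Among the genes of glycosaminoglycan breakdown, 4 of 8 rose in Cb, against 29.8% of all genes, and 1, *Idua*, fell, against 27.9%. In F/M 3 of 8 rose, against 12.8%. *Gusb* (chromosome 5, 129989011 to 130003049) encodes beta-glucuronidase. It had 14.2, 13.3 and 15.1 CPM in Cb-N against 23.3, 22.4 and 23.3 CPM in Cb-T, and 14.5, 14.5 and 15.7 CPM in F/M-N against 20.75, 21.9 and 18.9 CPM in F/M-T. The T libraries lay above the N libraries in both areas. Its log2 fold change was 0.70 in Cb (standard error 0.0657, FDR 2.61e-12) and 0.49 in F/M (standard error 0.0698, FDR 3.93e-05), and the interaction of 0.23 had FDR 0.0799.

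*Naglu* (chromosome 11, 101070012 to 101077672) encodes alpha-N-acetylglucosaminidase, an enzyme of heparan sulfate breakdown. It had 11.7, 9.49 and 10.1 CPM in Cb-N against 15.7, 14.8 and 19.2 CPM in Cb-T, and 8.54, 8.28 and 9.10 CPM in F/M-N against 11.8, 10.6 and 11.8 CPM in F/M-T. Again no library of T was as low as one of N in the same area, though replicate 3 of Cb-T stood above the other two. The log2 fold change was 0.68 in Cb (standard error 0.0882, FDR 1.41e-08) and 0.43 in F/M (standard error 0.085, FDR 0.0011). Without replicate 3 of Cb-T the Cb fold change was 1.47, below the limit for a DEG. The interaction did not pass (0.27, FDR 0.172).

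*Ids* (chromosome X, 70343069 to 70365084) encodes iduronate 2-sulfatase and had the highest level per length of this group in all groups of mice. It had 353, 348 and 347 CPM in Cb-N against 356.5, 355 and 352 CPM in Cb-T. In F/M it had 745, 724 and 726 CPM in N and 699.8, 726 and 684 CPM in T. The N and T libraries overlapped in both areas, and the log2 fold changes were 0.04 in Cb (FDR 0.215) and -0.02 in F/M (FDR 0.566).

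Of the other genes of this group, *Galns* (N-acetylgalactosamine-6-sulfatase) had log2 fold changes of 0.49 in Cb (FDR 1.17e-05) and 0.28 in F/M (FDR 0.0209). *Arsb* (arylsulfatase B) had 0.27 in Cb (FDR 4.05e-09) and no change beyond its error in F/M (FDR 0.997), with an interaction of 0.28 (FDR 1.53e-05). *Idua* (alpha-L-iduronidase) had -0.13 in Cb (FDR 0.0697), with libraries that overlapped, and 0.09 in F/M (FDR 0.38). This fall of *Idua* did not pass with DESeq2, with library size only, with no filter on low counts or at FDR below 0.05. Of the exons of *Idua*, 2.95% overlap with *Dgkq* and 3.35% with *Slc26a1*, both on the opposite strand. *Dgkq* had a log2 fold change of -0.25 in Cb (FDR 1.26e-07), and its part in the counts of *Idua* was not tested. *Sgsh* (N-sulfoglucosamine sulfohydrolase) had 0.15 in Cb and 0.08 in F/M, and *Hgsnat* (heparan-alpha-glucosaminide N-acetyltransferase) had 0.03 in Cb and 0.04 in F/M. Neither of them passed in either area.

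In the group of glycoprotein and glycogen breakdown, 5 of 6 genes rose in Cb, against 29.8% of all genes, and 4 of 6 in F/M, against 12.8%. *Man2b1* (chromosome 8, 85083270 to 85098282), the lysosomal alpha-mannosidase, had 34.9, 31.7 and 34.8 CPM in Cb-N against 57.4, 60.0 and 58.7 CPM in Cb-T. In F/M it had 49.7, 51.1 and 47.9 CPM in N against 65.1, 66.3 and 66.6 CPM in T. The groups were well apart in both areas. *Man2b1* had a log2 fold change of 0.81 in Cb (standard error 0.0448, FDR 2.03e-19) and 0.45 in F/M (standard error 0.0406, FDR 1.15e-07), with an interaction of 0.38 (FDR 1.55e-05).

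*Gaa* (chromosome 11, 119267887 to 119285454) encodes acid alpha-glucosidase, which degrades glycogen. It had 202, 197 and 195 CPM in Cb-N against 260.1, 262 and 255 CPM in Cb-T, and 442, 438 and 424 CPM in F/M-N against 457, 465.5 and 466 CPM in F/M-T. The groups did not overlap in either area. The log2 fold change was 0.40 in Cb (FDR 3.66e-17) and 0.12 in F/M (FDR 0.00243), and the interaction was 0.30 (FDR 2.52e-07), all under the 1.5-fold limit.

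The other genes of the group had smaller log2 fold changes than *Man2b1* in both areas. *Aga* (aspartylglucosaminidase) had log2 fold changes of 0.46 in Cb (FDR 4.42e-04) and 0.30 in F/M (FDR 0.0496), and *Fuca1* (alpha-L-fucosidase) had 0.29 (FDR 2.41e-06) and 0.21 (FDR 0.0195). *Manba* (beta-mannosidase) had 0.20 in Cb (FDR 0.00493) and 0.10 in F/M (FDR 0.366). *Neu1* (sialidase 1) did not pass in either area, with -0.0018 in Cb (95% interval -0.08 to 0.07) and 0.05 in F/M (95% interval -0.03 to 0.13).

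All 3 genes of cholesterol and phospholipid turnover rose in Cb, against 29.8% of all genes, and 1 rose in F/M, against 12.8%. *Npc2* (chromosome 12, 84754562 to 84773152) encodes the carrier that hands cholesterol to NPC1 for export from the lysosome. It had 57.0, 59.5 and 57.6 CPM in Cb-N against 99.1, 102.5 and 100.5 CPM in Cb-T. In F/M it had 54.0, 54.4 and 56.9 CPM in N against 81.2, 77.8 and 79.9 CPM in T. No library of T overlapped with N, and the spread within a group was small beside the change. *Npc2* had a log2 fold change of 0.81 in Cb (standard error 0.0352, FDR 4.08e-23) and 0.56 in F/M (standard error 0.04, FDR 2.9e-09), with an interaction of 0.26 (FDR 2.49e-04). In F/M its fold change of 1.48 stayed under the limit for a DEG, and it was 1.505 without replicate 3 of F/M-N and 1.501 without replicate 2 of F/M-T.

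*Lipa*, the acid lipase that hydrolyses cholesteryl esters and triglycerides, had a log2 fold change of 0.39 in Cb (FDR 3.51e-07) and a value near 0 in F/M (FDR 0.822), with an interaction of 0.39 (FDR 2.77e-04). *Pla2g15*, the lysosomal phospholipase A2, had 0.36 in Cb (FDR 1.32e-05) and 0.11 in F/M (FDR 0.155), with an interaction of 0.27 (FDR 0.0179).

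The peptidases and the thiol reductase rose in both areas. All 3 of them passed FDR below 0.1 in Cb, against 29.8% of all genes, and in F/M, against 12.8%. *Ifi30* (chromosome 8, 70762774 to 70766663) encodes the interferon-inducible reductase GILT, which opens disulfide bonds of endocytosed proteins for antigen presentation. Its counts were low, with 3.105, 4.54 and 3.76 CPM in Cb-N against 5.40, 6.64 and 5.14 CPM in Cb-T. In F/M it had 2.385, 1.935 and 2.16 CPM in N against 4.29, 4.43 and 4.45 CPM in T. Despite the low counts the groups did not overlap, and the T libraries of F/M lay in the range of the N libraries of Cb. The log2 fold change was 0.61 in Cb (standard error 0.134, FDR 1.83e-04) and 1.05 in F/M (standard error 0.142, FDR 2.05e-05).

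The Cb call of *Ifi30* rested on single libraries, since its fold change was 1.39 without replicate 1 of Cb-N and 1.40 without replicate 2 of Cb-T. Between the areas the change was not shown to differ (interaction -0.43, 95% interval -0.83 to -0.02, FDR 0.155). *Lgmn* (legumain, or asparaginyl endopeptidase) had log2 fold changes of 0.46 in Cb (FDR 2.98e-16) and 0.25 in F/M (FDR 1.25e-05), with an interaction of 0.23 (FDR 4.91e-04). *Dpp7* (dipeptidyl peptidase 2) had 0.16 in Cb (FDR 0.00842) and 0.29 in F/M (FDR 0.00116), and its interaction did not pass (-0.10, FDR 0.364).

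The group of phosphatases and nucleases held the genes whose response differed most between the areas. *Pld3* (chromosome 7, 27532000 to 27553218) encodes a membrane-anchored exonuclease of the phospholipase D family that degrades single-stranded nucleic acids in the lysosome. It had 74.2, 72.5 and 75.4 CPM in Cb-N against 124.5, 127 and 124 CPM in Cb-T. In F/M, where it was far higher, it had 593, 591 and 612 CPM in N against 569.9, 561 and 569 CPM in T. The T libraries lay above the N libraries in Cb and below them in F/M. The log2 fold change was 0.77 in Cb (standard error 0.0322, FDR 9.6e-24) and -0.05 in F/M (95% interval -0.10 to 0.01, FDR 0.237). The interaction was 0.84 (standard error 0.0382, FDR 1.05e-16) and passed under every alternative tried, with F/M-T below F/M-N at FDR 0.0143 in 1 fit of the 12 libraries. *Pld3* lies 78190 kb from *Tpp1* on the same chromosome.

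*Dnase2a* (chromosome 8, 84908560 to 84922915), the acid endonuclease that digests the DNA of engulfed cells, went the other way round. It had 11.4, 12.1 and 11.55 CPM in Cb-N against 11.9, 13.1 and 13.3 CPM in Cb-T, groups that overlapped. In F/M it had 3.90, 3.74 and 3.555 CPM in N against 6.61, 5.75 and 6.25 CPM in T, groups well apart. The log2 fold change was 0.14 in Cb (95% interval -0.01 to 0.30, FDR 0.123) and 0.76 in F/M (standard error 0.117, FDR 8.46e-05), and the interaction was -0.60 (standard error 0.134, FDR 0.00122). The size of this interaction was at the 1.5-fold limit, and it was -0.56 without replicate 3 of F/M-N, -0.55 without replicate 1 of F/M-T, -0.58 without replicate 2 of Cb-N and -0.58 with no filter on low counts.

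The reading of *Dnase2a* carries a limit, because 1616 bases (30% of its exons) overlap with exons of *Mast1* on the opposite strand and the strand setting of the counting is not given in the sources used here. *Mast1*, a kinase gene, averaged 157.2 CPM (Cb-N), 129.9 CPM (Cb-T), 116 CPM (F/M-N) and 109.5 CPM (F/M-T), and changed by -0.26 on the log2 scale in Cb (FDR 1.27e-09) and by -0.05 in F/M (FDR 0.404). Its part in the counts of *Dnase2a* was not tested. Such an overlap with a gene of the opposite strand also covered 32.3% of the exons of *Arsb*, 21.6% of *Sgsh*, 18.8% of *Arsa*, 12.8% of *Hexa* and 12.6% of *Acp2*. *Acp2* (lysosomal acid phosphatase) had a log2 fold change of 0.14 in Cb (FDR 4.79e-04), a value near 0 in F/M (FDR 0.866), and an interaction of 0.15 (FDR 0.0168).

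Of the genes of enzyme maturation and sorting, 1 of 3 passed in Cb, a share near the 29.8% of all genes that rose. In F/M 2 of 3 passed, against 12.8%. Neither F/M call held in 1 fit of 12 libraries, where *Sumf1* had FDR 0.116 and *Nagpa* FDR 0.135. *Sumf1*, which converts the active-site cysteine of all sulfatases to formylglycine, had the values given with its promoter window. *Gnptab*, a subunit precursor of the phosphotransferase that begins the mannose 6-phosphate tag, had a log2 fold change of -0.0024 in Cb (95% interval -0.08 to 0.07) and of -0.03 in F/M (95% interval -0.11 to 0.04). *Nagpa*, the enzyme that uncovers the tag, had 0.23 in Cb (FDR 0.0455), with libraries that overlapped, and 0.23 in F/M (FDR 0.0716), with libraries that did not.

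**Figure D3:**
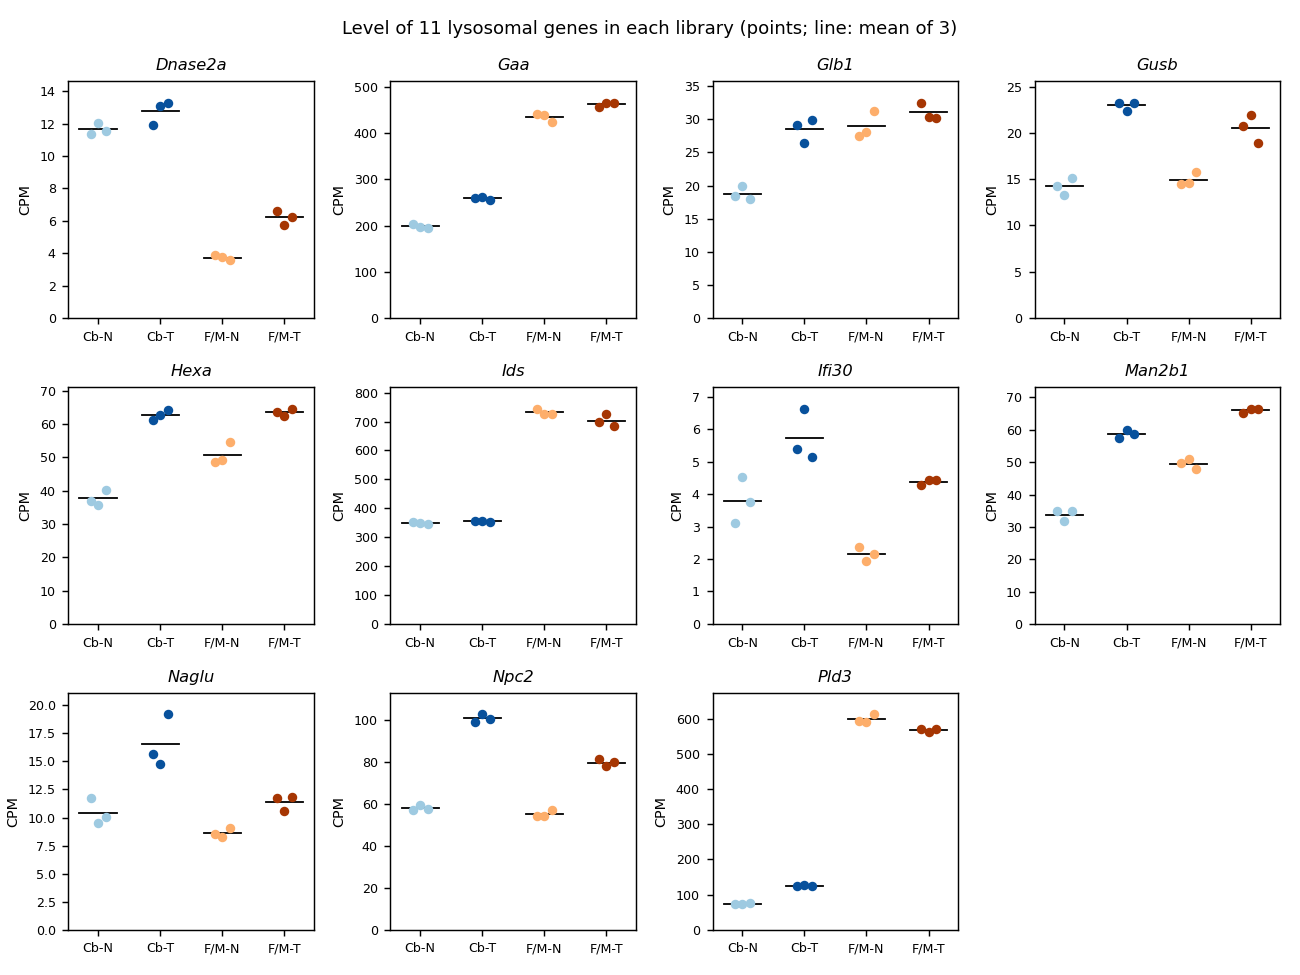
CPM (vertical axis, from 0) of 11 lysosomal genes in each of the 12 libraries, as points by group, with a line at the mean of 3 libraries. *Pld3* stood at 72.5 to 127 CPM in Cb and at 561 to 612 CPM in F/M, and *Dnase2a* was 3.555 to 3.90 CPM in F/M-N against 5.75 to 6.61 CPM in F/M-T.

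In control tissue, the list held a few genes that were expressed at very different levels in the areas. The level in Cb-N was 0.123 times that in F/M-N for *Pld3*, 0.454 times for *Gaa* and 0.476 times for *Ids*, whereas *Dnase2a* was 3.11-fold higher in Cb-N. At FDR below 0.1 and at least 1.5-fold, 2 of the 35 tested genes were higher in Cb-N, against 19.2% of all 16725 tested genes, and 6 were lower, against 22.8%. The median log2 difference (Cb-N vs F/M-N) was -0.028 for the listed genes and 0.0092 for all genes, and it was 0.036 and 0.072 with library size only. These are the same N libraries that entered the comparisons with T. The Cb-N libraries lay wholly above the F/M-N libraries for 12 of the 36 genes and wholly below for 14, as was the case for 39.5% and 38.8% of all genes.

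The log2 difference (Cb-N vs F/M-N) was -3.02 for *Pld3* (standard error 0.0309, FDR 4.74e-25), -1.14 for *Gaa* (FDR 9.89e-19) and -1.07 for *Ids* (FDR 3.86e-19). It was -0.85 for *Pla2g15*, -0.71 for *Arsb* and -0.63 for *Glb1*, which completed the 6 lower genes. The 2 higher genes were *Dnase2a*, with 1.64 (standard error 0.101, FDR 4.96e-12), and *Ifi30*, with 0.81 (standard error 0.17, FDR 2.39e-04). *Glb1* fell short of the limit without replicate 3 of F/M-N and with library size only, with a log2 difference of -0.57 in each case. *Manba*, at 0.58, and *Idua*, at 0.57, lay just under the limit. *Manba* passed it without replicate 2 of F/M-N or without replicate 2 or 3 of Cb-N, *Idua* passed it without replicate 3 of Cb-N, and both passed it with library size only.

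Levels of different genes were compared per length, as RPKM (CPM per kilobase of the exons of a gene). *Psap* was the highest gene of the list in every group, with 562.8 ± 11.4 RPKM (SD, n = 3) in Cb-N and 572.1 ± 8.59 RPKM (SD, n = 3) in F/M-N. In F/M-N it was followed by *Pld3* (204.7 ± 3.88 RPKM), *Ids* (143.4 ± 2.26 RPKM), *Gaa* (90.92 ± 1.94 RPKM), *Lgmn* (53.79 ± 0.986 RPKM) and *Smpd1* (34.73 ± 1.61 RPKM), with no overlap of these spreads. In Cb-N the order was *Psap*, *Ids* (68.43 ± 0.595 RPKM), *Lgmn* (44.81 ± 1.95 RPKM), *Gaa* (41.41 ± 0.811 RPKM), *Smpd1* (33.84 ± 0.850 RPKM) and *Pld3* (25.32 ± 0.504 RPKM). In Cb-T, *Pld3* had 42.81 ± 0.411 RPKM and had moved before *Smpd1* (37.84 ± 0.407 RPKM). *Acp5* was last in all groups, and *Dnase2a* stood just before it in F/M-N with 0.692 ± 0.0323 RPKM. *Psap* alone gave 44.2% to 46.1% of the summed CPM of the 36 genes in Cb and 33.0% to 34.2% in F/M.

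**Figure D4:**
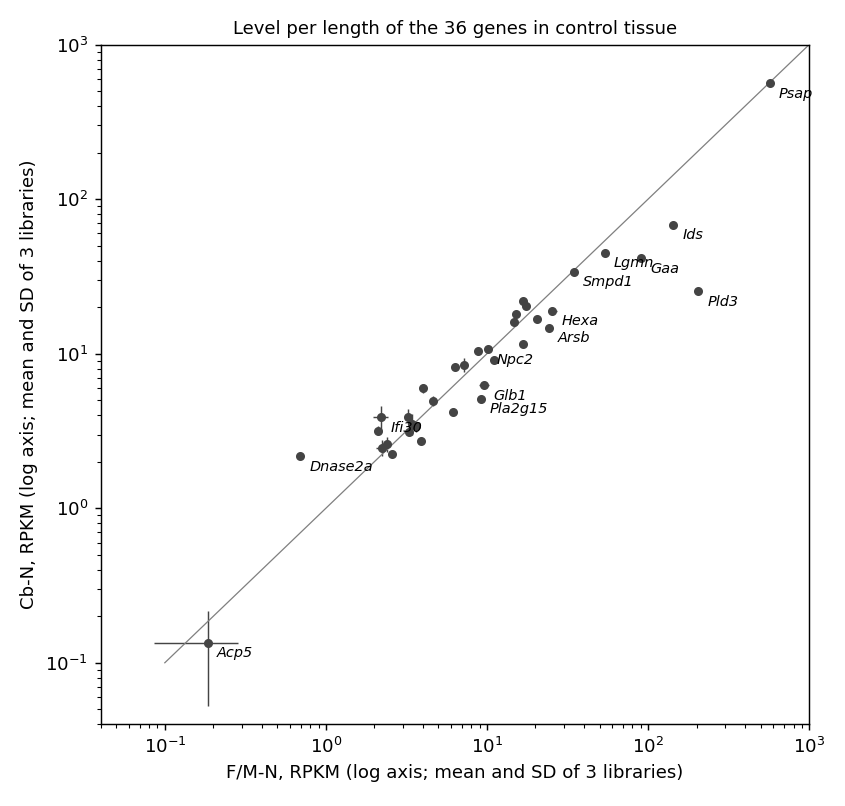
Mean RPKM of the 36 genes in F/M-N (horizontal, log axis) and Cb-N (vertical, log axis), with bars for the SD of 3 libraries and the line of equal levels. *Pld3* (204.7 and 25.32 RPKM), *Gaa* and *Ids* lie below the line and *Dnase2a* above it, and *Acp5* sits at the bottom with a wide spread.

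The summed level of the 36 genes was 3345 to 3429 CPM in Cb-N against 3968 to 4012 CPM in Cb-T. In F/M it was 4612 to 4687 CPM in N and 4758 to 4823 CPM in T. Without *Psap* the sums were 1816 to 1849 CPM in Cb-N, 2216 to 2238 CPM in Cb-T, 3069 to 3099 CPM in F/M-N and, for F/M-T, 3155 to 3191 CPM. The sums of T exceeded those of N in both areas with no overlap. By role, the sum of the sphingolipid group was 1918 to 1984 CPM in Cb-N against 2245 to 2270 CPM in Cb-T. That of the cholesterol and phospholipid group was 90.45 to 94.39 CPM in Cb-N against 142.1 to 146.8 CPM in Cb-T. The sums for maturation and sorting, at 102.6 to 108.3 CPM in Cb-N against 105.1 to 107.1 CPM in Cb-T, overlapped. Not every role was higher in F/M-T than in F/M-N on this scale, which used TMM factors over 12 libraries. With that scaling F/M changes came out lower, as for *Ids* (log2 fold change -0.06, against -0.02 in the fit of 6 F/M libraries). The phosphatases and nucleases summed to 169.8 to 175.1 CPM in Cb-N against 229 to 235.2 CPM in Cb-T, but to 700.8 to 721.3 CPM in F/M-N against 669.5 to 682.5 CPM in F/M-T, mostly *Pld3*. The glycosaminoglycan group summed to 575.2 to 586.9 CPM in Cb-N against 616.7 to 626.4 CPM in Cb-T, and in F/M to 984.4 to 1004 CPM for N and 950.2 to 1000 CPM for T, which overlapped, as did the sums for maturation and sorting.

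Markers of several cell types also differed between T and N, some higher and some lower in T. In whole tissue, a change in the number of cells of a type and a change in RNA per cell cannot be told apart. The 14 microglial markers, of which none was at 0, summed to 138.4 to 146.4 CPM in Cb-N, 525.4 to 540.9 CPM in Cb-T, 421.6 to 433.1 CPM in F/M-N and, for F/M-T, 649 to 660.5 CPM. At FDR below 0.1 and any fold change, all 14 rose in Cb and 12 of 14 in F/M, against 29.8% and 12.8% of all genes.

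The astrocyte markers (10 genes) summed to 6344 to 6377 CPM in Cb-N against 8190 to 8218 CPM in Cb-T, and to 5529 to 5826 CPM in F/M-N against 6405 to 6784 CPM in F/M-T, and 9 of 10 rose in each area, while *Slc1a3* fell in Cb (1702 CPM in N, 1592 CPM in T). The oligodendrocyte markers (10 genes) summed to 4768 to 4878 CPM in Cb-N against 6230 to 6292 CPM in Cb-T, with 9 of 10 higher, while in F/M they stood at 6117 to 6285 CPM in N and 6070 to 6234 CPM in T, with 1 of 10 higher and 2 lower. The neuronal markers (10 genes) summed to 7279 to 7343 CPM in Cb-N against 6684 to 6808 CPM in Cb-T, with 5 of 10 lower and 3 higher, and to 9339 to 9428 CPM in F/M-N against 8755 to 8857 CPM in F/M-T, with 4 of 10 lower. The markers of border macrophages (6 genes) summed to 7.93 to 8.21 CPM in Cb-N against 11.35 to 11.88 CPM in Cb-T, and to 11.39 to 12.71 CPM in F/M-N against 13.01 to 14.36 CPM in F/M-T, with 3 of 6 higher in Cb and 1 of 6 in F/M. Those of endothelial cells (10 genes) summed to 315.4 to 327.7 CPM in Cb-N against 358.7 to 364 CPM in Cb-T, with 8 of 10 higher in Cb and 3 of 10 in F/M. The 8 cerebellar markers all fell in Cb. These counts are at FDR below 0.1 and any fold change. Of all genes, 29.8% rose and 27.9% fell in Cb, and 12.8% rose and 14.4% fell in F/M. Some counts were near those shares, such as 3 of 10 neuronal markers higher in Cb and 1 of 6 border macrophage markers higher in F/M. The part of the marker shifts in the lysosomal values was not tested.

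**Figure D5:**
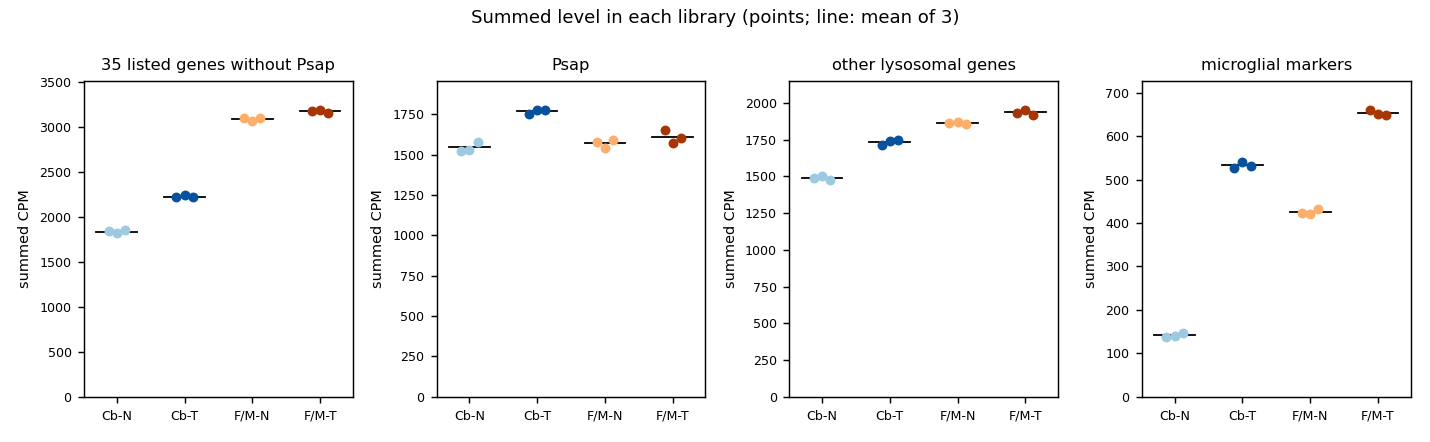
Summed CPM (vertical axis, from 0) in each of the 12 libraries, as points by group with a line at the mean of 3 libraries, for the listed genes without *Psap*, *Psap*, 33 other lysosomal genes and 14 microglial markers. All 4 sums were higher in Cb-T than in Cb-N without overlap, and the microglial sum was 525.4 to 540.9 CPM in Cb-T against 138.4 to 146.4 CPM in Cb-N.

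A further 33 genes of lysosomal enzymes and their sorting, which are not on the list of 36, were read beside it. Of these, 30 were tested in Cb and 29 in F/M. In Cb 22 rose and 2 fell at FDR below 0.1, against 29.8% and 27.9% of all genes. In F/M 19 rose and 1 fell, against 12.8% and 14.4%. The median log2 fold change was 0.23 in Cb and 0.15 in F/M. The genes that fell were *Ppt2* (-0.47, FDR 5.45e-09) and *Igf2r*, the larger receptor for the mannose 6-phosphate tag (-0.10, FDR 0.0135), in Cb, and *Sort1*, which encodes the sorting receptor sortilin (-0.15, FDR 5.68e-04), in F/M.

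*Pld4*, a relative of *Pld3* whose product has the same kind of nuclease activity, was a DEG with higher levels in T in both areas. It had 2.97, 3.44 and 3.43 CPM in Cb-N against 12.6, 10.2 and 11.1 CPM in Cb-T. In F/M it had 8.20, 7.47 and 9.18 CPM in N against 14.4, 14.3 and 14.0 CPM in T. Unlike *Pld3*, *Pld4* had T libraries above the N libraries in both areas. Its log2 fold change was 1.80 in Cb (standard error 0.113, FDR 1.74e-17) and 0.81 in F/M (standard error 0.0838, FDR 6.51e-07).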

How the data were processed

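Whole-tissue mRNA (TruSeq stranded kit, single-end reads of 50 bases) was measured in 12 libraries, 3 from each group named in the sample labels. Raw counts per gene were deposited by the authors, who had used STAR for alignment to GRCm38 and featureCounts 1.26.1 (Rsubread) for counting. The strand setting and the handling of reads with several alignments are not given in the sources used here.

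From these counts, T was compared with N within each area (6 libraries a fit) and Cb-N with F/M-N, and the interaction was fitted over 12 libraries. R 4.3.3 with edgeR 4.0.16 was used: filterByExpr (minimum count 10, minimum total 15), TMM, glmQLFit and glmQLFTest, with Benjamini-Hochberg adjustment over all tested genes. Every FDR in the text is from this test unless another is named, and intervals are 95% intervals of the log2 fold change. CPM used TMM factors over 12 libraries, and RPKM used exon lengths of the GENCODE M21 annotation of GRCm38, which also gave positions and overlaps. Promoter windows came from RefSeq (GRCm38.p6). At a depth of 21428379 to 24458189 counts, 3 counts correspond to 0.123 to 0.140 CPM, for counting error only, and the median count per library was 839.8 for the tested listed genes in Cb and 879.2 in F/M. Within a group each library is from its own mouse, and the study's methods read as 3 mice of each genotype for both areas, so that Cb and F/M libraries would share animals, which the fits across areas did not model.

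The listed genes, their roles, the other lysosomal genes and the marker lists were chosen with earlier results of these data known. Values in every library are given for DEG in either area, for the 6 largest log2 fold changes at FDR below 0.1 in each area, for genes with an interaction and for the 4 largest differences between Cb-N and F/M-N, with DEG of the other lysosomal genes named, except for a result that is not reported here. *Sort1*, *Ppt2*, *Igf2r* and the single marker genes were named after their values were seen. Alternatives were DESeq2 1.42.0, limma-voom (limma 3.58.1), RLE size factors, library size only, no filter, the replicate block, a stricter filter (mean count of at least 50), 1 fit of 12 libraries, FDR below 0.05 and leaving out each replicate. The procedure was tested on simulated counts. Expression measured by other methods in the study was not analysed here.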

Additional observations from a re-analysis of the deposited data

Results flagged for a closer look

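The T vs N change of 2 listed genes differed between Cb and F/M by at least 1.5-fold in the tissue-by-genotype interaction of edgeR over 12 libraries. *Pld3* had an interaction of 0.84 on the log2 scale (FDR 1.05e-16), with T above N in all 3 Cb-T libraries and below all N libraries in F/M. Its F/M log2 fold change of -0.05 did not pass in the fit of the F/M libraries alone, and 23.6% of all genes lay wholly below in F/M. *Dnase2a* had an interaction of -0.60 (FDR 0.00122), with T above N in all 3 F/M-T libraries and overlapping groups in Cb.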

How the results depend on the processing

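No log2 fold change of the genes with values in every library changed sign under an alternative, but some medians did. For Cb-N vs F/M-N, the median of the listed genes went from -0.028 to 0.036 with library size only. The median of all genes went from 0.0078 to -0.025 for F/M in 1 fit of 12 libraries, and from 0.027 to -0.023 for the interaction with a mean count of at least 50. The 8 DEG with higher levels in Cb ranged from 6 to 8 when 1 replicate was left out, and the 2 in F/M from 2 to 3, while DEG with lower levels stayed at 0 in both areas. At FDR below 0.1 and any fold change, the 27 genes that rose in Cb ranged from 26 to 28 and the 18 in F/M from 14 to 18. The 1 gene that fell in Cb, *Idua*, became 0 with DESeq2, with library size only, with no filter, with FDR below 0.05 and, among the fits that left out a replicate, ranged from 0 to 1. The genes that fell in F/M became 2 (*Ids* at FDR 0.0826 and *Pld3* at FDR 0.0143) in 1 fit of 12 libraries. The negative interaction of *Dnase2a* with the 1.5-fold limit became 0 genes with no filter and ranged from 0 to 1 when a replicate was left out, since it lies at that limit. Without the limit, negative interactions were 2 with RLE size factors, 3 with a mean count of at least 50 and 1 to 3 when a replicate was left out, and positive ones 12 to 18. DEG higher in Cb-N than in F/M-N became 4 with library size only and ranged from 2 to 4 when a replicate was left out, and the lower ones from 5 to 6. The cause of these shifts was not tested.

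Replicate numbers recur across the N and T groups. Same-numbered libraries did not deviate together (correlations of -0.0157 to 0.00875 in Cb, 0.00691 to 0.0616 in F/M and 0.000798 to 0.0523 between Cb-N and F/M-N), and no source says which libraries of Cb and F/M share a mouse. With the numbers as a replicate block (within each genotype for the interaction), DEG stayed at 8 in Cb and 2 in F/M, genes that rose at any fold change were 27 in Cb and 19 in F/M, and interactions at any fold difference were 19 positive and 1 negative, while DEG between Cb-N and F/M-N stayed at 2 higher and 6 lower. Depth limits the statement on *Acp5*, which was near the level of 3 counts, and the precision for *Ifi30* and *Dnase2a*, which had low counts in F/M-N.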
